A study of Mus musculus with 6 samples.

Results

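The locus of Rdm1 and Brca1 on mouse chromosome 11 is described here by 5 genes, Brca1, Nbr1, Tmem106a, LOC666331 and Rdm1, of 6 that were listed. The 6 were selected from 24054 gene rows by symbol and position, and the locus itself was chosen on the ko to wild-type differences in these same libraries, those of Rdm1 and LOC666331. The differences of the 5 genes are therefore given below as a description with their standard errors and without a test. The libraries were 3 Morc3 ko and 3 wild-type mouse embryonic stem (ES) cell RNA samples. The ko libraries came from 3 cell lines, each a single clone isolated after Cas9 cutting of Morc3 from transiently transfected guide RNA plasmids, with brief puromycin selection. They are called ko clone 1, 2 and 3. The wild-type libraries, labelled p42, p43 and p56, came from the parental line, and the labels do not say what the p number stands for. All cells grew without feeder cells on gelatin in medium with serum and LIF, and carried no other labelled allele or treatment. MORC3 is a nuclear ATPase that takes part in the silencing of endogenous retroviruses.

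The genes of the locus do not all act in the same process. BRCA1 is a ubiquitin ligase with its partner BARD1 and directs broken DNA towards homologous recombination, the repair route that copies an intact sister chromatid and on which rapidly dividing ES cells rely. RDM1 is named for a motif it shares with RAD52, an annealing protein of recombination. NBR1 is a receptor that carries ubiquitinated cargo to autophagosomes, and TMEM106A belongs to a small family of transmembrane proteins. LOC666331 has no assigned function.

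The 5 genes span 147.3 kb, from 101488761 to 101636089 of chromosome 11 in the RefSeq annotation of GRCm38.p6, the assembly also called mm10. Brca1 (101488761 to 101551955) lies on the minus strand and the 4 others on the plus strand. The starts of Brca1 and Nbr1 (101552107 to 101581951) face away from each other and are 152 bp apart. Tmem106a (101582242 to 101591788) begins 290 bp beyond the end of Nbr1. A gap of 18.9 kb then leads to LOC666331 (101610700 to 101616638), and a further 10.6 kb to Rdm1 (101627242 to 101636089). RefSeq lists LOC666331 as protein coding, whereas GENCODE places the lincRNA Gm11635 there, from 101610614 to 101615956, with 2 transcripts. GENCODE also places Gm11634 and the snRNA genes Gm26316 and Gm23849 inside the span, the last within Rdm1 and on the same strand. These had no row of their own and were not analysed here. Whether reads of Gm23849 entered the Rdm1 counts was not tested.

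The promoter windows of the Brca1 and LOC666331 starts are shown because they mark the Brca1 and Nbr1 pair and the gene with the largest difference in the locus. RefSeq windows of 300 bases (250 before the start and 50 from the start on) were matched for 4 of the 5 genes, all but Rdm1. Each is written 5′ to 3′ on the strand of its gene, and capitals mark motif matches. The Brca1 window is chr11:101551906-101552205, minus strand, and the LOC666331 window chr11:101610450-101610749, plus strand.
Brca1: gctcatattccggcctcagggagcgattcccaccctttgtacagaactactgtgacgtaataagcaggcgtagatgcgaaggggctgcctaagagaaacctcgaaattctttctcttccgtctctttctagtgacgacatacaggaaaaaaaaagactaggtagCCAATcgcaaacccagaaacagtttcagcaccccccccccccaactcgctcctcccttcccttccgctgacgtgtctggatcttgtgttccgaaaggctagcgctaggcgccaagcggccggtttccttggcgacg
LOC666331: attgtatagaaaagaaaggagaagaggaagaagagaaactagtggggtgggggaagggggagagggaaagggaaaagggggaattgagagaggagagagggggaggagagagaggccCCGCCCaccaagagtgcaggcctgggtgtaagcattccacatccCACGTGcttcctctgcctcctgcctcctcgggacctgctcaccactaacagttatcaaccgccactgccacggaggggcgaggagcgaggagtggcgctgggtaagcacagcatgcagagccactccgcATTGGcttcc

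The Brca1 window shares 251 bases with a window of Nbr1, so that a single stretch of DNA precedes both starts. It held a CCAAT box (CCAAT) 86 bases before the Brca1 start. The LOC666331 window held a GC box (GGGCGG, on the reverse strand) 133 bases before the RefSeq start and an E-box (CACGTG) 89 bases before it. It also held a reverse CCAAT box from position 40 after the RefSeq start. The GENCODE start of Gm11635 (101610614) lies inside this window too, and distances from it would differ. Both strands were searched, and no match overlapped another in the windows shown. Among 32851 promoters of this length, 37.4% held a CCAAT box, 35.7% a GC box and 7.15% an E-box. The other motifs searched were the ETS motif (CCGGAAG, 8.86% of promoters), the cAMP response element (TGACGTCA, 1.79%) and the TATA box (TATAAA, 13.6%), with no match in either window. The Brca1 window held 19 CpG dinucleotides and that of LOC666331 held 9, against a median of 7 over all promoters. These matches describe the letters in the windows and do not show that a factor binds there.

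Library depth was between 10740618 and 14123131 sense-strand counts. Morc3, the targeted gene, was at 77.8, 137.9 and 134.6 CPM (counts scaled by library size) in ko clones 1, 2 and 3 and at 276.8, 272.0 and 302.2 CPM in p42, p43 and p56. All ko libraries were below all wild-type libraries (log2 fold change -1.28, SE 0.16, edgeR quasi-likelihood adjusted p = 8.43e-04), and a transcript can remain after a Cas9 cut. The 8 ES cell markers checked were all expressed. None of them was called by edgeR, and 2 had an unadjusted p under 0.05. Over all tested genes 1.28% were called and 14.3% had such a p. Dppa5a, singled out after its values were seen, was at a mean of 1369 CPM in ko and 1017 CPM in wild type, without overlap (log2 fold change 0.43, SE 0.09, edgeR adjusted p = 0.023), which would be called at 0.05. The summed level of the 8 markers was 6029 to 6143 CPM in ko and 5520 to 5641 CPM in wild type, without overlap. Apart from Dppa5a, only Zfp42 showed no overlap between the groups (mean 1463 CPM in ko and 1316 CPM in wild type). Of all tested genes, 19.9% showed no overlap. Sox2 and Tdgf1 had log2 fold changes below 0 (-0.04 and -0.09), so the sum does not describe every marker. Of 5 fibroblast markers, which would come from feeder cells, 2 were high enough to test, and their summed level was 35.3 to 55.6 CPM in ko and 33.7 to 53.0 CPM in wild type. Thy1 was called lower in ko (log2 fold change -0.86, SE 0.14, edgeR adjusted p = 0.0064). Vim, the other one tested, was more abundant and went the other way, at a mean of 42.5 CPM in ko and 35.5 CPM in wild type. It was not called and the groups overlapped (log2 fold change 0.26, SE 0.21, edgeR adjusted p = 0.666). The endoderm markers and the mesoderm markers each summed to less than 1 CPM in every library. The part of these marker levels in the values below was not tested, and in bulk RNA fewer cells of a type and less RNA per cell cannot be told apart.

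Rdm1 was about doubled in every ko clone. It had 661, 729 and 716 counts in ko clones 1, 2 and 3 and 416, 456 and 359 in p42, p43 and p56, which corresponds to 61.1, 64.4 and 65.0 CPM against 30.1, 31.9 and 27.7 CPM. The lowest ko clone lay far above the highest wild-type culture. The mean level was 63.5 ± 2.10 CPM in ko and 29.9 ± 2.11 CPM in wild type (SD, n = 3), which is 2.12-fold or 1.08 on the log2 scale (SE 0.08). On the log2 scale the ko clones varied with an SD of 0.048 and the wild-type cultures with an SD of 0.102, where the medians over all tested genes were 0.109 and 0.123. Such an SD depends on the number of counts, and Rdm1 was chosen on this contrast, so nothing more is read from it.

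LOC666331, which ends 10.6 kb before Rdm1 on the same strand, was nearly silent in wild type and detected in each ko clone. It had 42, 37 and 33 counts in ko clones 1, 2 and 3 and 2 counts in each of p42, p43 and p56. This is 3.88, 3.27 and 2.99 CPM against 0.145, 0.140 and 0.154 CPM. The gene passed the filter on low counts only through its ko libraries. Its mean was 3.38 ± 0.454 CPM in ko and 0.146 ± 0.0073 CPM in wild type (SD, n = 3), and the fitted difference was 4.44 on the log2 scale (SE 0.36). Because the wild-type libraries held 6 counts in all against 112 in ko, the depth-scaled ratio of 23.1 has a 95% interval of 10.3 to 64.3, which covers counting error only.

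Between the groups, LOC666331 changed more than Rdm1. Within each library its counts equalled 6.35%, 5.08% and 4.61% of the Rdm1 counts in ko clones 1, 2 and 3, whereas p42, p43 and p56 gave 0.481%, 0.439% and 0.557%. Among the ko clones, clone 1 had the highest LOC666331 level and the lowest Rdm1 level. With 42, 37 and 33 LOC666331 counts, counting error is not small against these differences. No relation between the genes is read from this order. The wild-type libraries all held the same 2 LOC666331 counts and give no order.

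Brca1 and Nbr1, whose starts are 152 bp apart, were abundant and nearly level between the groups. Brca1 was at 231.8, 233.8 and 233.5 CPM in ko clones 1, 2 and 3 and at 210.5, 218.3 and 239.4 CPM in p42, p43 and p56. The groups overlapped, since p56 was above every ko clone. The means were 233 ± 1.08 CPM and 223 ± 14.96 CPM (SD, n = 3), and the log2 fold change was 0.07 (SE 0.06). The ko clones were nearly identical and the wider spread was that of the wild-type cultures. Nbr1 was at 187.4, 190.6 and 195.9 CPM in the ko clones and at 184.9, 180.6 and 197.4 CPM in p42, p43 and p56. Again p56 had the highest value of all 6 libraries. The means were 191 ± 4.32 CPM in ko and 188 ± 8.72 CPM in wild type (SD, n = 3), and the log2 fold change was 0.03 (SE 0.06). The Brca1 count per Nbr1 count was 1.24, 1.23 and 1.19 in the ko clones and 1.14, 1.21 and 1.21 in p42, p43 and p56.

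Relative to Brca1 in the same library, the Rdm1 counts were 26.3%, 27.5% and 27.8% of those of Brca1 in ko clones 1, 2 and 3 and 14.3%, 14.6% and 11.6% in p42, p43 and p56. The lowest share was in p56, where Rdm1 was lowest and Brca1 highest among the wild-type cultures. The shares use the same Rdm1 counts on which the locus was chosen and only restate them on another scale.

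Tmem106a, which begins 290 bp beyond Nbr1, was the least abundant gene of the locus per kb of exon in the ko clones. It had 17, 22 and 17 counts in ko clones 1, 2 and 3 and 21, 18 and 21 counts in p42, p43 and p56, or 1.57, 1.94 and 1.54 CPM against 1.52, 1.26 and 1.62 CPM. The groups overlapped. Its means were 1.69 ± 0.223 CPM in ko and 1.47 ± 0.186 CPM in wild type (SD, n = 3), and the log2 fold change was 0.20 (SE 0.27). With about 20 counts a library, a modest difference would not be detectable.

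**Figure D1:**
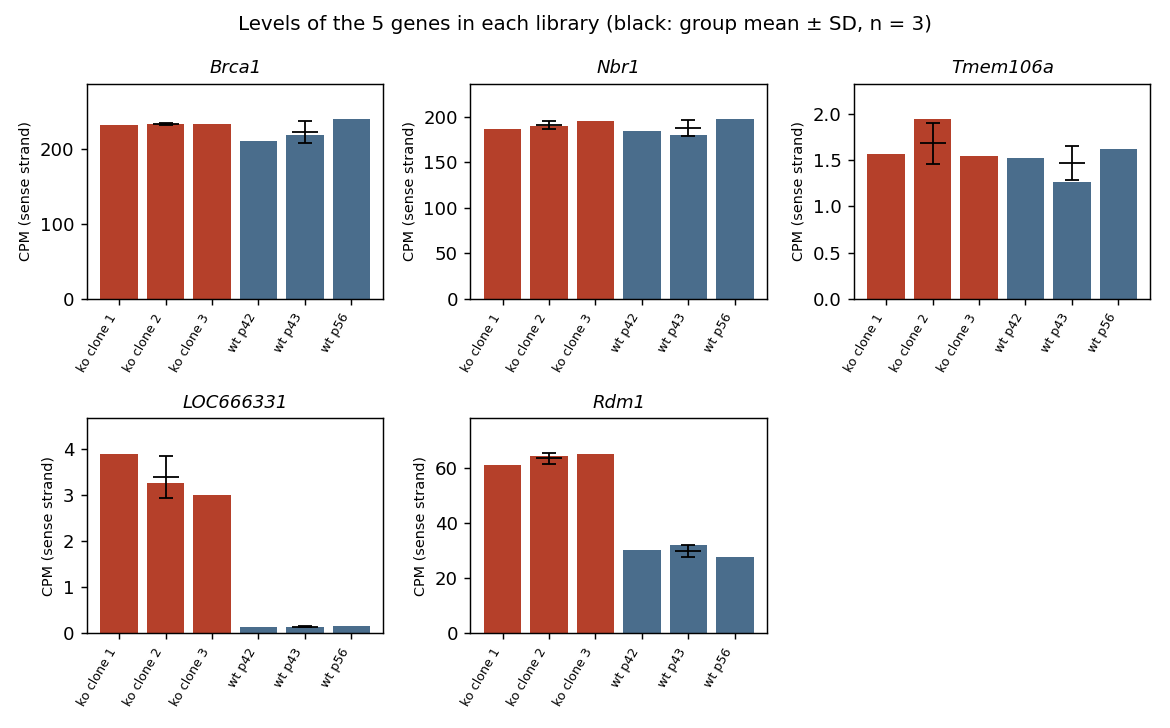
Bars give the CPM on the sense strand of each of the 5 genes in each library, ko clones in red and wild-type (wt) cultures in blue, with a separate linear axis from 0 for each gene. Black marks give the group mean ± SD (n = 3), drawn over the middle bar of each group. Rdm1 lies at 61.1 to 65.0 CPM in ko and 27.7 to 31.9 CPM in wild type, and LOC666331 at 2.99 to 3.88 CPM and 0.140 to 0.154 CPM, while the bars of Brca1, Nbr1 and Tmem106a overlap between the groups.

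All 5 genes passed the filter on low counts. By the edgeR quasi-likelihood test at an adjusted p under 0.01, 2 of the 5 were called, Rdm1 and LOC666331, both higher in ko, and 3 were not. Over all 12222 genes tested, 156 or 1.28% were called, and 0.859% were called higher in ko. In 2 of the 5 genes, again Rdm1 and LOC666331, the ko and wild-type libraries did not overlap in CPM, as they did not in 19.9% of all tested genes. The locus was chosen on this contrast, so nothing is read from these counts. The median log2 fold change was 0.20 over the 5 genes and -0.000103 over all tested genes. The former is the value of Tmem106a (SE 0.27), and with 2 of the 5 genes chosen for their difference it does not describe a shift of the locus.

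The levels of different genes were compared per kb of exon, with exon lengths from GENCODE. In ko the order was Rdm1 (40.3 ± 1.33 CPM per kb), Nbr1 (27.8 ± 0.628), Brca1 (27.3 ± 0.126), LOC666331 (6.06 ± 0.813) and Tmem106a (0.537 ± 0.0710, SD, n = 3). The libraries of Nbr1 and Brca1 overlapped, so that the order of this pair is not resolved. In wild type Nbr1 (27.3 ± 1.27 CPM per kb) and Brca1 (26.1 ± 1.75) overlapped at the top. Rdm1 followed at 19.0 ± 1.34 CPM per kb, Tmem106a at 0.468 ± 0.0594 and LOC666331 at 0.262 ± 0.0131 (SD, n = 3). On this scale Rdm1 was below Brca1 and Nbr1 in every wild-type library and above both in every ko library. With the RefSeq gene span as length, Rdm1 lay above Brca1 in p42 and p43 too. LOC666331 was below Tmem106a in every wild-type library and above it in every ko library. The LOC666331 values rest on the 558 exon bases of Gm11635 and would be lower with a longer transcript.

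**Figure D2:**
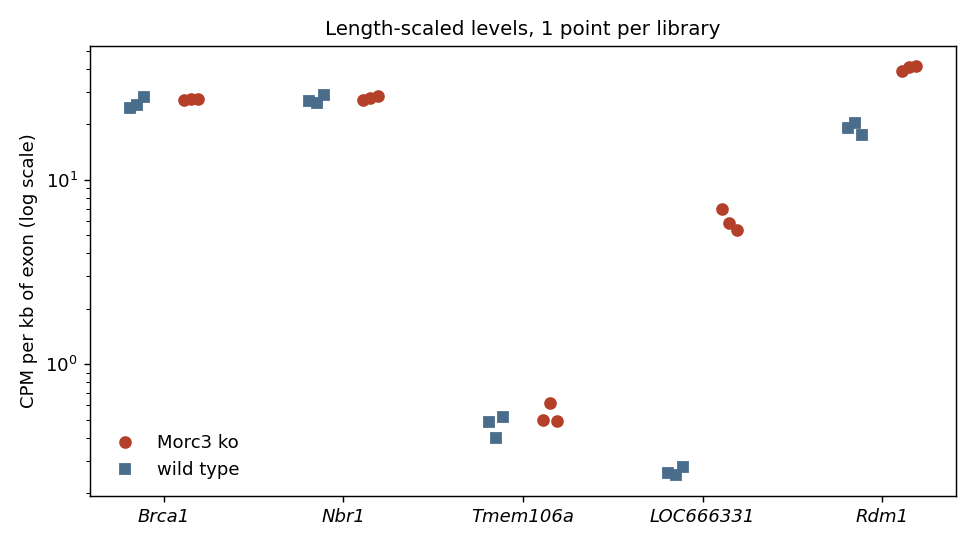
Each point is the level of a gene in 1 library, in CPM per kb of exon on a log scale, with ko clones as red circles and wild-type cultures as blue squares (3 points a group). Rdm1 lies at 38.8 to 41.3 in ko and 17.6 to 20.3 in wild type, on either side of the Brca1 and Nbr1 points, and LOC666331 moves from 0.251 to 0.277 up to 5.37 to 6.95.

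Few reads came from the opposite strand. Summed over the 6 libraries, Brca1 had 21 opposite-strand counts, or 0.124% of its counts on both strands (exact 95% binomial interval 0.0770% to 0.190%), and Nbr1 had 29, or 0.206% (0.138% to 0.296%). A library held 0 to 8 of these counts for Brca1 and 4 to 6 for Nbr1. Rdm1 had 1 opposite-strand count. Tmem106a and LOC666331 had 0, among 116 and 118 counts, which by the limit of 3 counts allows a share of up to 2.59% and 2.54%. The intervals and limits cover counting error only. Over all genes the opposite strand held 1.21% to 1.27% of the counts on both strands in each library. None of the 5 genes had enough opposite-strand counts to be tested. Of 1378 genes that had, 7 or 0.508% were called by edgeR. Ignoring strand removed 1 count from Brca1 in all 6 libraries together and 0 from the 4 others.

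The genes around the locus were used to see whether the difference extended beyond Rdm1 and LOC666331. Of 35 other genes whose RefSeq start lies within 500 kb of the Rdm1 start, 22 were tested and 4 had no counts in any library. None was called by edgeR, DESeq2 or limma-voom, and 2 had an unadjusted p under 0.05 in edgeR, against 1.28% called and 14.3% with such a p over all tested genes. With so few genes, 0 calls is near that share. These flanking genes had a median log2 fold change of 0.05, with 15 above and 7 below 0. In 6 of the 22 the groups did not overlap, as in 19.9% of all tested genes.

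The nearest tested gene on the Brca1 side was Rnd2, a small GTPase. It was at 6.56, 7.503 and 7.26 CPM in the ko clones and at 5.87, 7.70 and 6.18 CPM in p42, p43 and p56, and the groups overlapped (log2 fold change 0.11, SE 0.16, edgeR adjusted p = 0.823). On the Rdm1 side the nearest outside the listed genes was Dhx8, a helicase of the spliceosome, which starts 105.7 kb from Rdm1. It was at 90.0, 93.7 and 96.6 CPM in ko and at 86.2, 88.5 and 77.4 CPM in wild type (log2 fold change 0.15, SE 0.07, edgeR adjusted p = 0.361). The groups did not overlap, but the gene was not called. Ramp2, a receptor activity-modifying protein, had the largest value of the flanking genes and was picked out after the values were seen. Its start lies at -380.9 kb relative to that of Rdm1, and it had 8 to 19 counts a library (log2 fold change 1.13, SE 0.32, edgeR adjusted p = 0.09995).

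**Figure D3:**
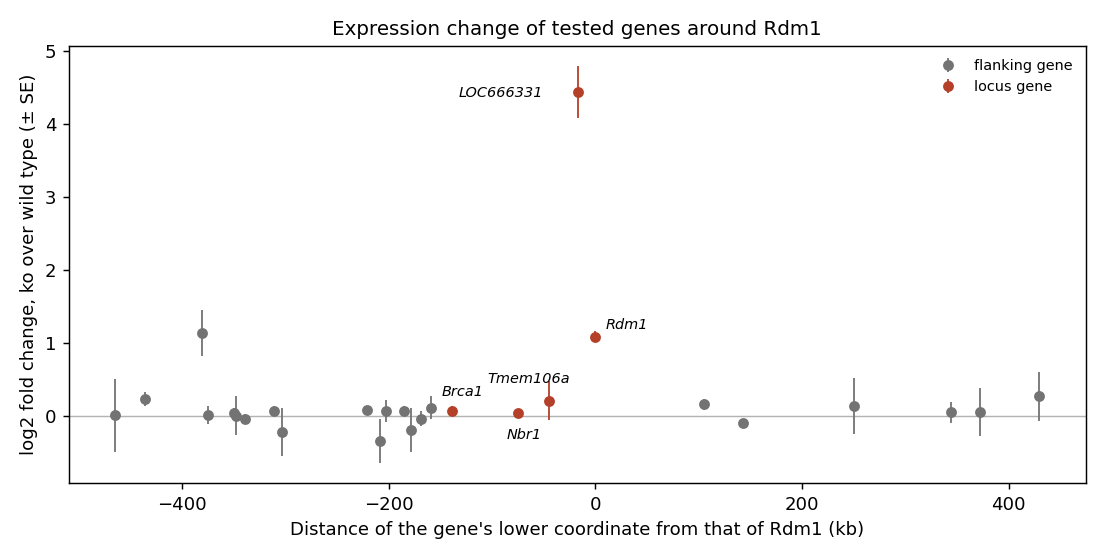
Points give the log2 fold change (ko over wild type, ± SE, n = 3 a group) of the 5 genes and of each tested flanking gene against the distance of the lower coordinate from that of Rdm1 in kb, with genes of the locus in red and flanking genes in grey. Rdm1 (1.08) and LOC666331 (4.44) stand above 0, and of the other points that of Ramp2 (1.13, not called) is the highest.

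Recombination genes outside the locus were compared because Brca1 acts in this pathway and Rdm1 shares a motif with Rad52. All 37 listed genes were tested and none was called by edgeR, DESeq2 or limma-voom. In edgeR 3 had an unadjusted p under 0.05. Over all tested genes 1.28% were called and 14.3% had such a p, so that 0 calls among 37 genes is near the share of all genes. The smallest adjusted p was 0.181 (Brca2, log2 fold change 0.19). The median log2 fold change was 0.01 and the range -0.22 to 0.21. Among the most abundant, Topbp1, which activates the ATR checkpoint kinase, was at a mean of 331.7 CPM in ko and 319.8 CPM in wild type (log2 fold change 0.05, SE 0.06, edgeR adjusted p = 0.750). Exo1, a nuclease that resects broken ends, was likewise not called (log2 fold change 0.05, SE 0.07, edgeR adjusted p = 0.846). Fignl1, an ATPase, gave a similar value (log2 fold change 0.07, SE 0.06, edgeR adjusted p = 0.651). The log2 fold changes of Bard1 and Rad52 were 0.01 and 0.15 (SE of Rad52 0.15).

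The other gene lists held 0 called genes, near the 1.28% called over all tested genes for lists of this size. The 18 selective autophagy genes tested were receptors and members of the autophagy machinery, and Becn1 is also among the flanking genes. None of the 18 was called by edgeR, DESeq2 or limma-voom, and 1 had an unadjusted p under 0.05 in edgeR. Their median log2 fold change was 0.01 and their range -0.26 to 0.15. For Tax1bp1, a receptor, the log2 fold change was 0.03 (SE 0.06, edgeR adjusted p = 0.869), and for Atg16l1, of the LC3 conjugation machinery, it was 0.14 (SE 0.07, edgeR adjusted p = 0.431). Sqstm1, the p62 receptor, was at -0.23 on the same scale (SE 0.10, edgeR adjusted p = 0.315). Without p56 it was -0.35, and Sqstm1 was then called lower (edgeR adjusted p = 0.0012). Of 15 genes of the ARL and TMEM106 families and cytohesins tested, none was called by edgeR, DESeq2 or limma-voom, and none had an unadjusted p under 0.05 in edgeR. Their median log2 fold change was -0.01 and their range -0.44 to 0.39. The relatives of Tmem106a, Tmem106b and Tmem106c, had log2 fold changes of -0.01 and -0.12. The most abundant of the list were Arl8b, a lysosomal GTPase (log2 fold change -0.07, SE 0.07), Arl5a (0.0015, SE 0.08) and Arl1, a GTPase of the Golgi (0.05, SE 0.08), with edgeR adjusted p = 0.727, 0.997 and 0.834. The sign for Arl5a turned under 3 alternatives.

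**Figure D4:**
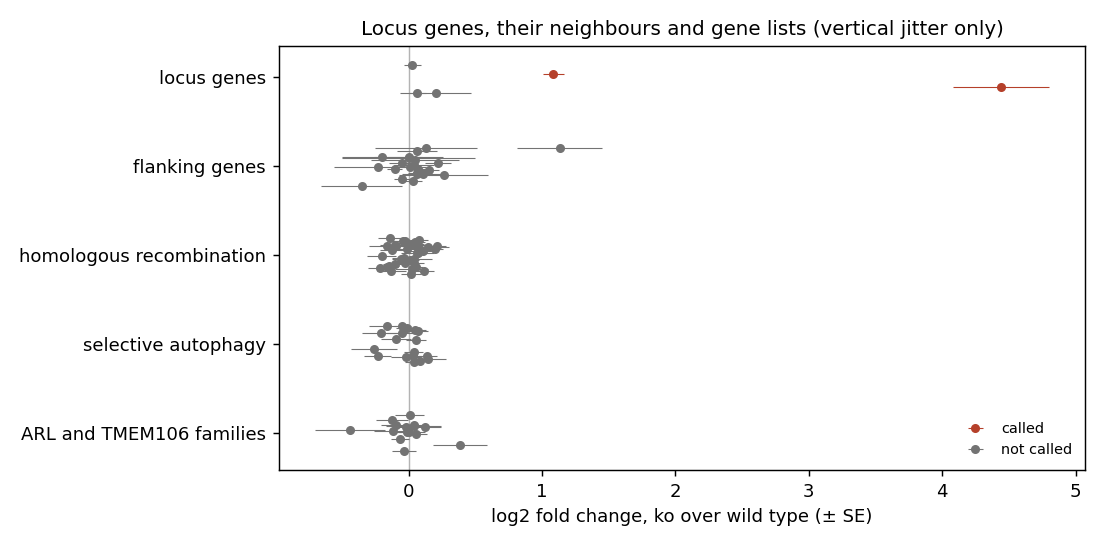
Points give the log2 fold change (ko over wild type, ± SE, n = 3 a group), with called genes in red and the others in grey. The rows hold the 5 genes of the locus and each tested gene among the flanking genes and in the 3 gene lists. Vertical position within a row has no meaning. The called points are those of Rdm1 and LOC666331 in the locus, and the recombination genes lie between -0.22 and 0.21.

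By Pearson correlation of log2 CPM over the 6 libraries, 1700030C10Rik was among the tested genes outside the locus with the pattern most like that of Rdm1 (r = 0.997), with means of 42.9 CPM in ko and 13.3 CPM in wild type. Those most like LOC666331 were Slc23a1, a vitamin C transporter (r = 0.998), Tbc1d13, a Rab GTPase-activating protein (r = 0.998), and the receptor Tlr2 (r = 0.997). Rdm1 and LOC666331 correlated at r = 0.986. The 6 libraries form separate ko and wild-type groups, which fixes most of such a correlation for any gene that differs between them, so these values only describe likeness.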

How the data were processed

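Per the labels and the study's methods, total RNA was depleted of ribosomal RNA and strand-marking libraries were sequenced as read pairs. The authors aligned them to mm10 with STAR and deposited raw read counts per gene for the sense strand, the opposite strand and both together. The annotation is not given in the sources used here. Such counts leave out reads that overlap several genes, and they cover exons only.

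Sense counts were tested in R 4.3.3 with edgeR 4.0.16 (quasi-likelihood, TMM, filterByExpr at its minima of 10 counts and 15 in total), two-sided, 3 ko against 3 wild-type libraries, over all 12222 genes that passed, with Benjamini-Hochberg adjustment. A gene was called at an adjusted p under 0.01, which the study's methods used with DESeq2 for gene expression. The study's plot of gene changes marks genes at a DESeq2 adjusted p under 0.05. CPM used TMM library sizes. P-values set the ko to wild-type difference against the spread between these clones and between these cultures. The ko lines were single clones isolated after puromycin selection, and the wild-type cultures came from the parental line. This difference in history cannot be told apart from the genotype. DESeq2 1.42.0 and limma-voom (limma 3.58.1), RLE factors, no filter, unstranded counts, a threshold of 0.05 and leaving out each library were alternatives. The code was tested on simulated data.

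Of the gene rows, 22542 matched RefSeq by symbol and 1323 by an older symbol, and 189 did not match. Exon lengths were found for 99.1% of tested genes. The locus and the lists were chosen with earlier results of these data known. Genes named besides the locus were Morc3, the nearest tested neighbour on each side, called genes and the 3 most abundant of each list, and the 3 most correlated genes. One gene of the locus and some of the correlated genes are not reported here. Brca2, Bard1, Rad52, Dppa5a, Zfp42, Sox2, Tdgf1, Vim, Tmem106b, Tmem106c and Ramp2 were added after their values were seen.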

Additional observations from a re-analysis of the deposited data

How the results depend on the processing

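Rdm1 and LOC666331 were called, and Brca1, Nbr1 and Tmem106a were not, under each of the 12 alternatives. The log2 fold change of Rdm1 ranged from 1.03 (without p56) to 1.13 (without p43) and that of LOC666331 from 4.22 (limma-voom) to 4.53. Those of Brca1 (0.03 to 0.12), Nbr1 (0.0015 to 0.07) and Tmem106a (0.09 to 0.28) stayed above 0. Flanking, recombination and ARL and TMEM106 lists had 0 calls throughout, and the autophagy list had 1 (Sqstm1) without p56.

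The 156 genes called over all genes became 254 with DESeq2 (163 higher, 91 lower), 286 without a filter (170 higher, 116 lower), 331 at 0.05 (193 higher, 138 lower) and 72 to 385 with a library left out. The lowest counts were 72, 73 and 96 without ko clones 3, 2 and 1, and the highest was 385 without p56. The 7 opposite-strand genes became 2 with DESeq2, 13 at 0.05 and 4 to 9 with a library left out (4 without ko clone 3). The log2 fold change of Arl5a was -0.0034 without a filter, -0.04 without ko clone 1 and -0.068 without p43, and that of Tax1bp1 was -0.00091 without ko clone 3. With a library left out, Arl5a ranged from -0.068 to 0.058 and Tax1bp1 from -0.00091 to 0.066. For these shifts the cause was not tested. With the RefSeq span in place of exon length the levels per kb moved, for example to 7.17 (ko) and 3.38 (wild type) for Rdm1, since introns lengthen each gene differently. Rdm1 then lay above Brca1 in p42 (3.405 against 3.33) and p43 (3.61 against 3.45), and Brca1 (3.69) well below Nbr1 (6.41) in ko. Depth limits Tmem106a and the wild-type level of LOC666331 the most. No paired analysis was possible because no label links a ko clone to a wild-type culture.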
